A study of Mus musculus with 12 samples.

Results

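The genes described here are 43 markers of blood cell lineages, read in osteoblasts and endothelial cells that had been sorted from mouse long bones by gates meant to leave blood cells out. They were taken as a list of named markers: 7 genes of red cell precursors, 9 of neutrophils, 10 of macrophages, 7 shared by many leukocytes, 7 grouped as B cell genes and 3 of megakaryocytes and platelets. Each gene was read from its brightest probe set over the 12 arrays, among probe sets that name a single gene. All 43 were measured, of 19937 genes on the array. A gene was tested where its value lay above the 40th percentile of an array in at least 3 of the 12 arrays. Of the 43 genes, 36 met this, of 14217 genes in all. The 7 that did not were Rhag, Mmp8, Csf3r, Adgre1, Spi1, Cd79a and Ebf2, and for these only values are given.

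Bone marrow fills the space between trabeculae, so cells dissociated from long bones hold many blood cells for each osteoblast or endothelial cell. Sorting therefore uses surface proteins of blood cells as negative gates: CD45 is carried by nearly all leukocytes, and Ter119 by red cell precursors from a late stage on. Some blood cells carry little of either, among them early erythroid precursors and platelets.

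Female C57BL/6 mice were used throughout. Tumor-bearing mice had received 500000 EO771 cells, a mouse mammary carcinoma line, into the heart, and the growth of these cells in the long bones had been followed by bioluminescence for about 2 weeks. Tumor-free mice were the controls. Osteoblasts were sorted as cells negative for GFP, Ter119, CD45, SCA1 and CD31 and positive for CD51, and endothelial cells as cells negative for GFP, Ter119 and CD45 and positive for SCA1 and CD31. RNA of 5000 cells per array was amplified before hybridisation. Each of the 4 groups had 3 arrays, given as biological replicates. Whether an array pools cells of several mice is not in the labels. Nothing in the labels ties an osteoblast array to an endothelial array of the same mice, and the labels give no ages.

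All values are log2 values as deposited, in which a difference of 1 is a doubling. The median of all probe sets lay between 5.95 and 6.04 on the 12 arrays. Marker genes outside the 43 separated the cell types. All 4 osteoblast markers tested were higher in osteoblasts and all 6 endothelial markers tested were higher in endothelial cells. This held in tumor-free and in tumor-bearing mice (limma, adjusted p from 1.05e-08 to 0.000318). Among the 6, Pecam1 encodes CD31, on which the cells were sorted. Itgav, which encodes the osteoblast gate CD51, was 1.41 higher in osteoblasts of tumor-free mice and passed. In tumor-bearing mice it was 0.93 higher and did not pass. Ptprc, which encodes CD45, read 5.83, 5.10 and 6.31 in tumor-free osteoblasts, 5.63, 5.52 and 7.28 in tumor-bearing osteoblasts, 5.26, 5.89 and 5.53 in tumor-free endothelial cells and 5.18, 5.48 and 5.19 in tumor-bearing endothelial cells. It lay below the array median on 10 arrays and above it in replicate 3 of both osteoblast groups. In tumor-bearing mice all 3 osteoblast arrays lay above all 3 endothelial arrays, and the difference did not pass. Of all genes tested, 12.1% were higher without overlap in that comparison. Cartilage markers were also brighter in the osteoblast gate. In tumor-free mice 6 of 8 were past the threshold (5.38% of all genes tested were higher), and in tumor-bearing mice 8 of 8 (4.89%). Genes of T and NK cells had 0 of 6 tested members past the threshold in each of the 5 comparisons by limma, with 1 at an unadjusted p under 0.05 in tumor-bearing against tumor-free osteoblasts and 1 in osteoblasts against endothelial cells of tumor-bearing mice. Both were the chemokine gene Ccl5, at 9.0 in tumor-bearing osteoblast replicate 3 and 6.81 to 7.56 elsewhere.

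1 array stood apart in these genes. Replicate 3 of the tumor-free osteoblasts was the highest of the 12 arrays in 21 of the 43 genes (48.8%), and in 11.8% of all genes tested. Within its own group it was the highest in 29 of 43 (67.4%, against 38.7% of all genes tested), which included all 10 macrophage genes and 7 of 9 neutrophil genes. Replicate 3 of the tumor-bearing osteoblasts went the other way in part: it was the lowest of its group in all 7 erythroid genes, 7 of 9 neutrophil genes and all 3 megakaryocyte genes, against 35.9% of all genes tested, and in 0 of the 10 macrophage genes. Results that rest on these arrays are given with and without them. The brightest array of a gene was an osteoblast array in 36 of the 43 genes (83.7%) and in 53.3% of all genes tested.

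**Figure D1:**
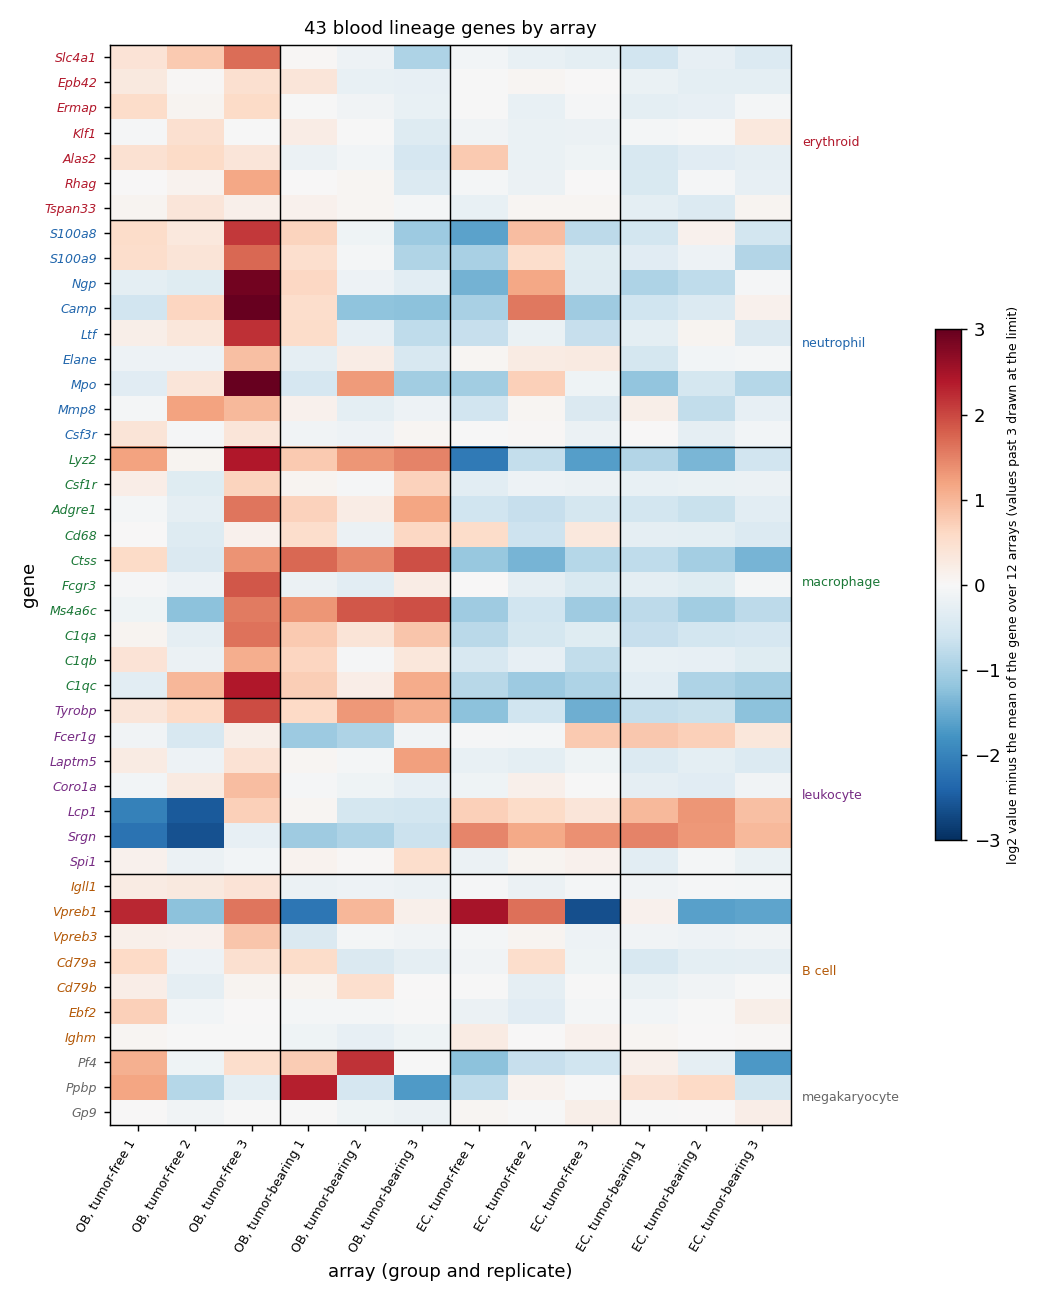
Heat map of the 43 genes (rows, grouped and coloured by lineage) in the 12 arrays (columns, by group and replicate; OB, osteoblasts; EC, endothelial cells). Colour is the log2 value minus the mean of that gene over the 12 arrays, from blue (below) to red (above), with values past 3 drawn at the limit. The column of tumor-free osteoblast replicate 3 is red for most neutrophil and macrophage genes, and Ctss and Ms4a6c are red in all 3 tumor-bearing osteoblast arrays.

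5 comparisons were made, each by limma with adjustment over all 14217 genes. Between tumor-bearing and tumor-free osteoblasts 0 of the 36 genes passed an adjusted p of 0.05, where 0.0563% of all genes tested passed, with 2 higher (5.80% of all genes tested) and 6 lower (3.97%) before adjustment (p under 0.05). The 3 arrays of each group did not overlap for 1 gene that was higher in tumor-bearing mice, Ctss (6.18% of all genes tested), and 6 that were lower, Slc4a1, Ermap, Alas2, Igll1, Vpreb3 and Ighm (8.36%). Between tumor-bearing and tumor-free endothelial cells 0 passed (0.0141% of all genes), and 0 were higher (2.62%) and 1 lower (1.97%) unadjusted. Arrays did not overlap there for 2 higher genes, Klf1 and Lcp1 (5.63% of all genes), and 4 lower ones, Epb42, Alas2, Elane and Laptm5 (4.87%). The tumor effect in osteoblasts minus that in endothelial cells had 0 genes past the threshold (0.0281% of all genes), with 0 higher (3.52%) and 2 lower (2.95%) unadjusted.

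Osteoblasts and endothelial cells differed more. In tumor-free mice 7 of the 36 genes were higher in osteoblasts (5.38% of all genes tested were) and 1 was lower (7.00%), and arrays did not overlap for 14 higher (13.6%) and 1 lower (15.8%). In tumor-bearing mice 4 were higher (4.89%) and 2 lower (5.68%), and arrays did not overlap for 11 higher (12.1%) and 5 lower (16.0%). Among the 4, Ms4a6c met the filter through osteoblast arrays alone, where it was high. So did Csf1r among the 11 without overlap in tumor-bearing mice and Tspan33 among the 14 in tumor-free mice. The count of 8 in tumor-free mice was 6 when tumor-free osteoblast replicate 3 was left out, 3 without replicate 2 of the tumor-free endothelial cells, and 5 without replicate 1 or 3 of the latter or tumor-bearing endothelial replicate 3. The count of 6 in tumor-bearing mice was 3 when tumor-bearing osteoblast replicate 2 or tumor-bearing endothelial replicate 1 or 2 was left out, and 9 without replicate 3 of the tumor-free osteoblasts. The 2 comparisons of cell types contrast different arrays, but each shares arrays with the tumor comparisons. All 12 arrays set the spread of each gene in every test, so the 2 are not independent. As these are bulk samples, more blood cells in a sorted population and more of these RNAs per cell cannot be told apart.

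**Figure D2:**
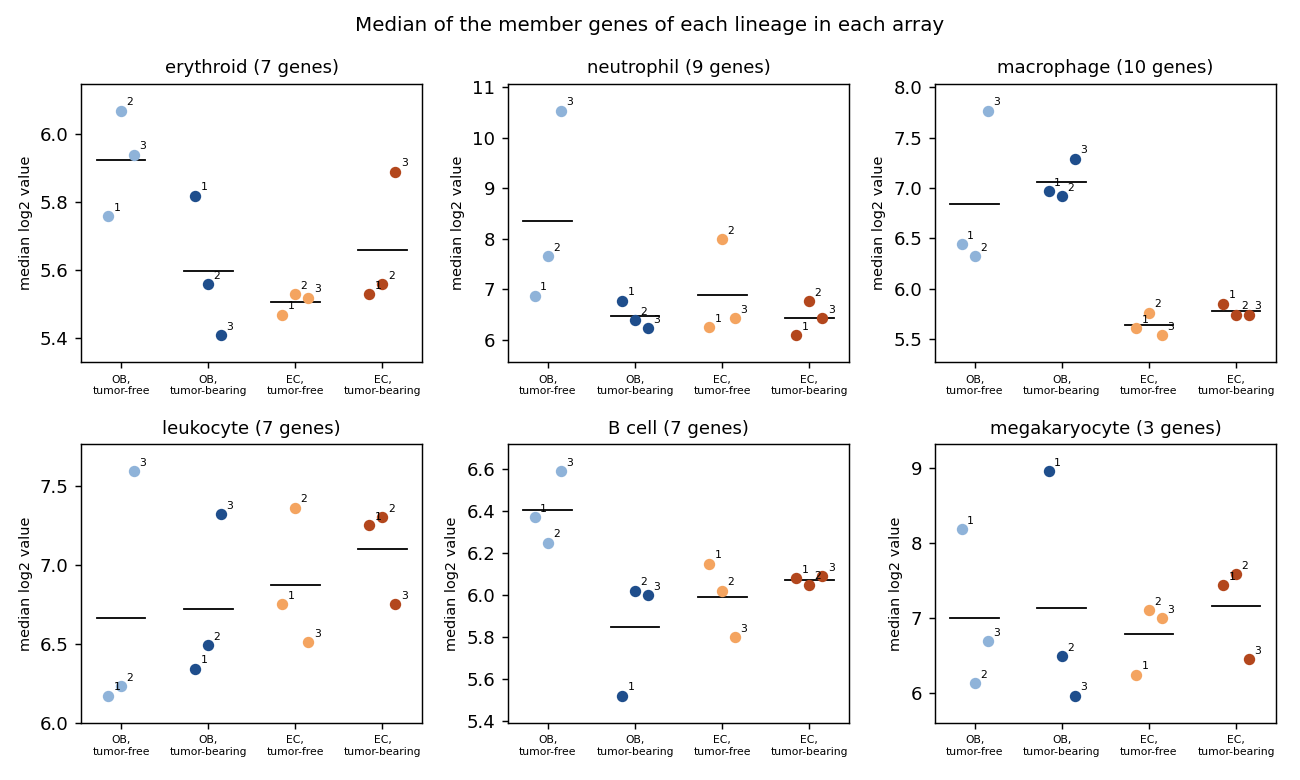
Median log2 value of the genes of each lineage in each array, with points numbered by replicate and a line at the mean of the 3 arrays (OB, osteoblasts; EC, endothelial cells). The vertical scale differs between panels. The neutrophil median reaches 10.54 in tumor-free osteoblast replicate 3, and the macrophage medians of all 6 osteoblast arrays (6.32 to 7.77) lie above those of all 6 endothelial arrays (5.54 to 5.85).

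Of the 6 erythroid genes tested, Slc4a1 and Ermap were higher in osteoblasts than in endothelial cells of tumor-free mice (5.38% of all genes tested). In tumor-bearing mice 0 passed. The log2 values of Slc4a1, the anion exchanger of the red cell membrane, were 7.64, 8.03 and 8.92 in tumor-free osteoblasts, 7.28, 7.07 and 6.30 in tumor-bearing osteoblasts, 7.15, 7.0 and 6.94 in tumor-free endothelial cells and 6.67, 6.98 and 6.82 in tumor-bearing endothelial cells. The tumor-free osteoblast arrays were above the arrays of the other groups, without overlap. In tumor-free mice Slc4a1 was 2.24-fold higher in osteoblasts than in endothelial cells (log2 difference 1.17, SE 0.32, limma adjusted p = 0.036). That call was lost without replicate 2 or 3 of the tumor-free osteoblasts, any replicate of the tumor-free endothelial cells or replicate 3 of the tumor-bearing endothelial cells (adjusted p 0.0525 to 0.105, difference 0.80 to 1.25), and in the fit of those 6 arrays alone (0.0759). In osteoblasts of tumor-bearing mice the difference from tumor-free mice was -1.32 (SE 0.32, limma adjusted p = 0.211), which did not pass.

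Ermap, a membrane protein of erythroblasts, also had its tumor-free osteoblast arrays above all others. It read 7.25, 6.79 and 7.28 in tumor-free osteoblasts, 6.68, 6.60 and 6.49 in tumor-bearing osteoblasts, 6.68, 6.48 and 6.66 in tumor-free endothelial cells and 6.41, 6.45 and 6.65 in tumor-bearing endothelial cells. In tumor-free mice it was 0.50 higher in osteoblasts (SE 0.14, limma adjusted p = 0.0447). The call held in 1 of the 12 fits that left out an array, that without replicate 2 of the tumor-free osteoblasts, and was lost in the other 11 (adjusted p 0.0504 to 0.148) and in the fit of those 6 arrays alone (0.131). Alas2, the erythroid enzyme that starts haem synthesis, read 7.20, 7.33 and 7.12 in tumor-free and 6.57, 6.68 and 6.25 in tumor-bearing osteoblasts, and 7.54, 6.55 and 6.63 in tumor-free and 6.27, 6.41 and 6.48 in tumor-bearing endothelial cells. In both cell types all 3 tumor-bearing arrays lay below all 3 tumor-free arrays. Neither difference passed (-0.72 in osteoblasts, limma adjusted p = 0.354, and -0.52 in endothelial cells, 0.9999).

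Epb42, which encodes a membrane skeleton protein, read 5.76, 5.50 and 5.94 in tumor-free and 5.82, 5.24 and 5.22 in tumor-bearing osteoblasts, and 5.44, 5.51 and 5.48 in tumor-free and 5.26, 5.16 and 5.17 in tumor-bearing endothelial cells. The tumor-bearing endothelial arrays were the lower ones, without overlap. The erythroid transcription factor gene Klf1 stayed between 5.19 and 6.07, and the tetraspanin gene Tspan33 between 5.06 and 5.83. Rhag, a partner of the Rh antigens, was not tested and read 3.87 to 4.42 on 11 arrays and 5.47 in replicate 3 of the tumor-free osteoblasts.

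As a group, all 6 erythroid genes tested were negative in tumor-bearing against tumor-free osteoblasts, with a median of -0.41 where the median of all genes was -0.02. The median was -0.43 without replicate 3 of the tumor-free osteoblasts and -0.34 without replicate 3 of the tumor-bearing ones. In endothelial cells 5 of 6 were negative (median -0.19, all genes 0.01). In tumor-free mice all 6 differences between osteoblasts and endothelial cells were positive (median 0.31, all genes -0.01), and in tumor-bearing mice the median was 0.10. Epb42 and Tspan33 met the filter through osteoblast arrays alone, which favours a positive sign in comparisons of the cell types. A longer erythroid list had 12 tested genes, of which 11 were negative in tumor-bearing osteoblasts (median -0.40). By limma the list had 0 past the threshold and 2 lower at an unadjusted p under 0.05 (3.97% of all genes tested). One of its genes passed between cell types: Tfrc, the transferrin receptor gene, which dividing cells of many types use for iron uptake, was 1.80 higher in osteoblasts of tumor-bearing mice (SE 0.39, limma adjusted p = 0.0131). Hbb-bh1, an embryonic haemoglobin gene, was not tested and read 4.04 to 4.96. The alpha and adult beta haemoglobin genes, read by probe sets that name several genes, were not analysed here.

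Neutrophil genes had the largest spread between replicates of the 6 lineages. The median within-group SD of the 7 tested was 0.94, against 0.23 for all genes tested. Camp, which encodes the antimicrobial peptide cathelicidin of secondary granules, read 6.88, 8.10 and 10.61 in tumor-free osteoblasts, 7.99, 6.24 and 6.23 in tumor-bearing osteoblasts, 6.49, 9.03 and 6.38 in tumor-free endothelial cells and 6.86, 7.04 and 7.59 in tumor-bearing endothelial cells. A single high array set the spread in each tumor-free group, replicate 3 among osteoblasts and replicate 2 among endothelial cells. Mpo, the myeloperoxidase gene of primary granules, read 6.95, 7.66 and 10.54 in tumor-free and 6.78, 8.57 and 6.25 in tumor-bearing osteoblasts, and 6.25, 7.99 and 7.15 in tumor-free and 6.10, 6.77 and 6.43 in tumor-bearing endothelial cells. The groups overlapped in both cell types.

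The same array led in the genes of calprotectin and lactoferrin. S100a9, which with its genomic neighbour S100a8 encodes calprotectin, read 10.78, 10.63 and 11.96 in tumor-free and 10.74, 10.19 and 9.33 in tumor-bearing osteoblasts, and 9.27, 10.78 and 9.87 in tumor-free and 9.91, 10.08 and 9.36 in tumor-bearing endothelial cells. Ltf, the lactoferrin gene, read 6.42, 6.58 and 8.44 in tumor-free and 6.78, 6.00 and 5.48 in tumor-bearing osteoblasts, and 5.54, 6.04 and 5.54 in tumor-free and 5.94, 6.32 and 5.80 in tumor-bearing endothelial cells. Replicate 3 was the highest tumor-free and the lowest tumor-bearing osteoblast array in both genes, so that these arrays lie at opposite ends. The tumor differences in osteoblasts were -1.03 (SE 0.48) for S100a9 and -1.06 (SE 0.49) for Ltf, with limma adjusted p of 0.534 and 0.536. Without replicate 3 of both osteoblast groups they were -0.24 and -0.11.

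Elane, the neutrophil elastase gene, read 6.01, 6.01 and 7.06 in tumor-free and 5.90, 6.39 and 5.68 in tumor-bearing osteoblasts, and 6.22, 6.41 and 6.43 in tumor-free and 5.63, 6.09 and 6.10 in tumor-bearing endothelial cells. The tumor-bearing endothelial arrays lay below the tumor-free ones without overlap (difference -0.42, SE 0.28, limma adjusted p = 0.9999). Of the other genes, the granule protein gene Ngp spanned 6.74 to 11.06 and S100a8 8.14 to 11.85, both with their highest value in replicate 3 of the tumor-free osteoblasts. Mmp8, which encodes a neutrophil collagenase, and Csf3r, the receptor of the growth factor G-CSF, were not tested and spanned 3.71 to 5.65 and 5.18 to 5.82.

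All 7 neutrophil genes tested were negative in tumor-bearing against tumor-free osteoblasts and 0 passed by limma, with 0 at an unadjusted p under 0.05. Their median of -1.06 became -0.41 without replicate 3 of the tumor-free osteoblasts and -0.11 without replicate 3 of both osteoblast groups. The higher values in osteoblasts than in endothelial cells of tumor-free mice moved with the same array, with a median of 1.23 on all arrays and 0.19 without it. In tumor-bearing mice that median was 0.14 (-0.02 to 0.59 over the alternatives). A longer list of 11 tested neutrophil genes had 10 negative in tumor-bearing osteoblasts (median -0.41). By limma this list had 0 past the threshold and 2 lower unadjusted (3.97% of all genes tested). Its 1 call between cell types was Hp, the haptoglobin gene, 2.60 higher in osteoblasts of tumor-free mice (SE 0.36, limma adjusted p = 0.000864); haptoglobin is made by many cell types, and Hp read 9.74, 9.23 and 9.77 in tumor-free osteoblasts, with no single high array. Chil3, a chitinase-like gene of neutrophils and macrophages from that list, had single high arrays, with 9.21 in tumor-free osteoblast replicate 3, 8.22 in tumor-free endothelial replicate 2 and 4.40 to 5.96 on the other 10 arrays.

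**Figure D3:**
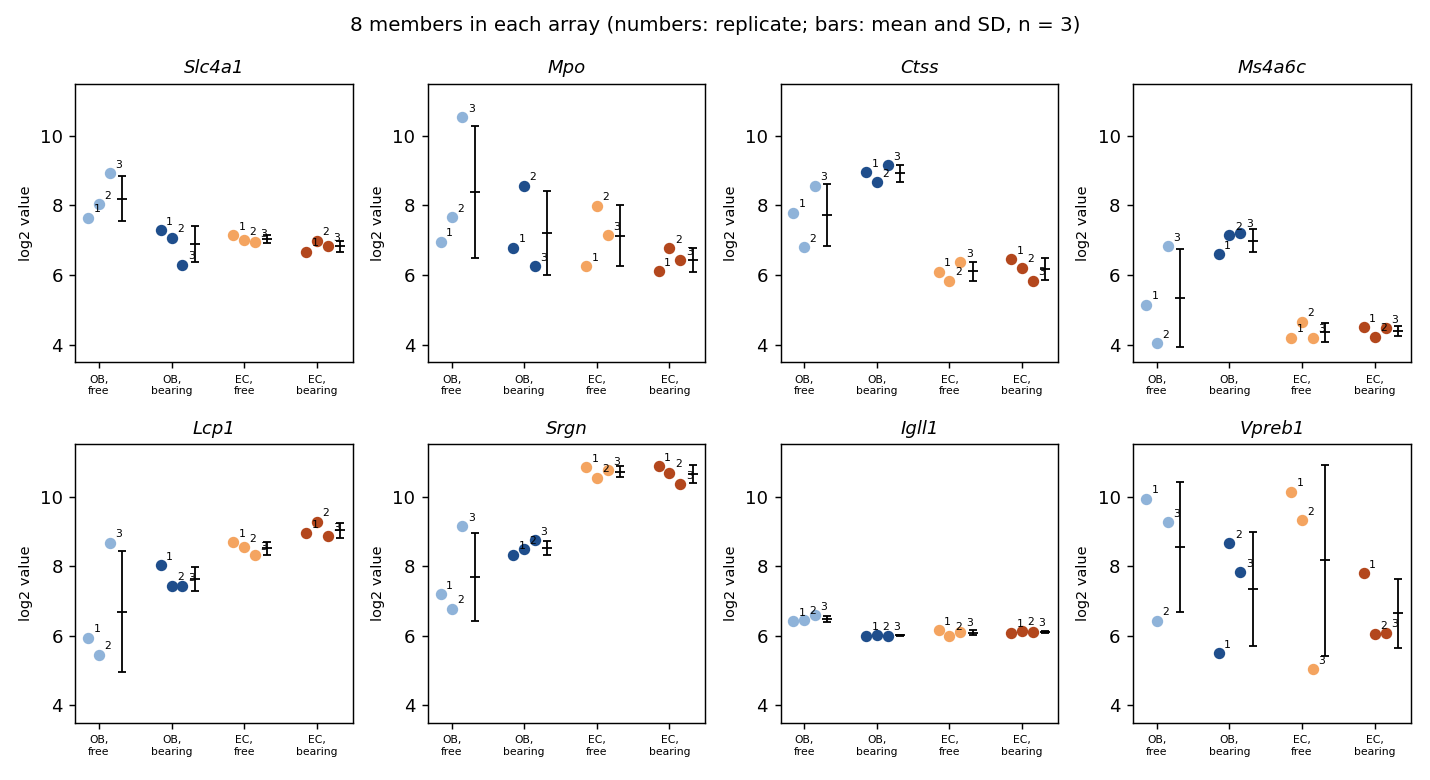
Log2 value of 8 of the 43 genes in each array, by group (OB, osteoblasts; EC, endothelial cells; free, tumor-free; bearing, tumor-bearing), with points numbered by replicate and bars for mean and SD (n = 3). All panels share one scale. Mpo, Lcp1 and Srgn have a high replicate 3 in tumor-free osteoblasts, Ctss and Ms4a6c are bright in all tumor-bearing osteoblast arrays, and Vpreb1 varies over 5.10 while Igll1 varies over 0.60.

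Of the 9 macrophage genes tested, 3 were higher in the osteoblast gate than in the endothelial gate of tumor-free mice. These were Lyz2, Ctss and C1qc (5.38% of all genes tested were higher). In tumor-bearing mice 3 were higher, Lyz2, Ctss and Ms4a6c (4.89% of all genes tested). In either mouse group 0 were lower (7.00% and 5.68%). Ms4a6c met the filter through osteoblast arrays alone, where it was high, so its place in this count is qualified. With no filter on low values its limma adjusted p was 0.0145. Of the 6 genes of all lineages past the threshold between cell types in tumor-bearing mice, 5 have a promoter window in the RefSeq table used, and the 250 bases before their start sites are printed here because these genes differed between the cell types: Lyz2, Ms4a6c and Ctss were higher in osteoblasts, and the leukocyte genes Fcer1g and Srgn were lower. Capitals mark AGGAAG or its reverse complement CTTCCT, a core that binds ETS family factors such as PU.1, the myeloid regulator encoded by Spi1. Sequences are from RefSeq, build GRCm38.p6, in the direction of transcription: Lyz2 from chr10:117282273-117282522 (minus strand), Ms4a6c from chr19:11469118-11469367 (plus strand), Fcer1g from chr1:171234350-171234599 (minus strand), Ctss from chr3:95526536-95526785 (plus strand) and Srgn from chr10:62527446-62527695 (minus strand).
Lyz2: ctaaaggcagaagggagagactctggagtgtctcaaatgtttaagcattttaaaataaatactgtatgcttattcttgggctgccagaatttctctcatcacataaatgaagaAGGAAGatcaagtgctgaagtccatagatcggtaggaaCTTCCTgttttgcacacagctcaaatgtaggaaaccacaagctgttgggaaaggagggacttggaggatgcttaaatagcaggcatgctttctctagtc
Ms4a6c: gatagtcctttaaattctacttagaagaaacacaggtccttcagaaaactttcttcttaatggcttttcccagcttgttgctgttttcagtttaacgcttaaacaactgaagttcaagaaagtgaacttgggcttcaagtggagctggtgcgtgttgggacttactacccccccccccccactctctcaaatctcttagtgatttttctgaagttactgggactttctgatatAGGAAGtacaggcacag
Fcer1g: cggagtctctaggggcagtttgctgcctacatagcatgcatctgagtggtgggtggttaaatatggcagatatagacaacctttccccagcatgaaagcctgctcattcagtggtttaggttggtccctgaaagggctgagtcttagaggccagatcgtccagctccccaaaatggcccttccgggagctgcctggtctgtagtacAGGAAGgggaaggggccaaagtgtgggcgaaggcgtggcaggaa
Ctss: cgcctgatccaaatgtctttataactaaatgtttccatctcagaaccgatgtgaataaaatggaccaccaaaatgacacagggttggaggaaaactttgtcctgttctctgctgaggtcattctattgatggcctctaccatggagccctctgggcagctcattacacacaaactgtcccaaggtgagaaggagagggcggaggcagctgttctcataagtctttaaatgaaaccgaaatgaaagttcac
Srgn: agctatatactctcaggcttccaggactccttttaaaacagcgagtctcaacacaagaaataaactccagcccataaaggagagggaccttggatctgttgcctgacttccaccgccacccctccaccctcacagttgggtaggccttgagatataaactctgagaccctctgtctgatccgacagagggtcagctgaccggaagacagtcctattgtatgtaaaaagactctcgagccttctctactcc
The core occurred in 2 places for Lyz2, 1 for Ms4a6c and 1 for Fcer1g. In Ctss and Srgn these 6 letters were not in the window printed. Srgn has 2 windows in the table, of which the farthest upstream is printed. Only AGGAAG and its reverse complement were marked, so other sites that ETS factors may bind were not looked for. Of 32851 windows in the table, 29.48% hold the core on either strand, so a match is common. Here and for the motifs below the percentage is per window. A gene was counted if any of its windows held the motif, so the shares are not fully alike. Of the 43 genes, 34 had a window and 21 of these held it, with 7 of 9 neutrophil, 5 of 7 macrophage, 3 of 5 leukocyte, 3 of 4 B cell, 2 of 3 megakaryocyte and 1 of 6 erythroid genes. For comparison AGATAA, a core of GATA factors, was in 4 of the 34 (9.99% of all windows), 2 of them erythroid, and CCACACCC, bound by KLF1-type factors, in 1 (3.20%). The palindromic EBF motif was in 0 (0.78%). The motifs were chosen after the values were known, both strands were searched, and a match is not a measured binding site.

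Lyz2, the lysozyme gene of macrophages and neutrophils, read 7.93, 6.80 and 9.11 in tumor-free osteoblasts, 7.50, 8.03 and 8.21 in tumor-bearing osteoblasts, 4.59, 6.00 and 5.05 in tumor-free endothelial cells and 5.84, 5.35 and 6.15 in tumor-bearing endothelial cells. Every osteoblast array lay above every endothelial array. It was 6.64-fold higher in osteoblasts of tumor-free mice (difference 2.73, SE 0.53, limma adjusted p = 0.00642) and 4.39-fold higher in tumor-bearing mice (2.14, SE 0.53, adjusted p = 0.0272). The first call held in all 22 alternatives. The second was lost without replicate 2 or 3 of the tumor-bearing osteoblasts or replicate 1 or 2 of the tumor-bearing endothelial cells (limma adjusted p 0.0700 to 0.0947). The endothelial values 4.59, 5.05 and 5.35 lay below the 40th percentile of their arrays, so both folds are imprecise. Lyz2 has a close copy, Lyz1, so its signal may hold both.

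Ctss, which encodes the lysosomal protease cathepsin S, read 7.79, 6.79 and 8.57 in tumor-free osteoblasts, 8.95, 8.67 and 9.15 in tumor-bearing osteoblasts, 6.09, 5.84 and 6.37 in tumor-free endothelial cells and 6.46, 6.21 and 5.83 in tumor-bearing endothelial cells. The 3 groups of values in osteoblasts with tumor, osteoblasts without and endothelium were stacked in that order without overlap. Against endothelial cells it was 6.76-fold higher in tumor-bearing mice (difference 2.76, SE 0.37, limma adjusted p = 0.000744), a call that held in all 22 alternatives, and 3.06-fold higher in tumor-free mice (1.62, SE 0.37, adjusted p = 0.0163). The tumor-free call was lost without replicate 1 or 2 of the tumor-free endothelial cells (limma adjusted p 0.0536 and 0.065) and in the fit of those 6 arrays alone (0.0739). Ctss was the 1 gene of the 36 whose tumor-bearing osteoblast arrays all lay above the tumor-free ones. That difference of 1.21 (SE 0.37) did not pass (limma adjusted p = 0.342, and 0.120 to 0.672 over the alternatives).

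Ms4a6c, a tetraspanning membrane protein gene of monocytes and macrophages, read 5.14, 4.04 and 6.83 in tumor-free osteoblasts, 6.60, 7.14 and 7.21 in tumor-bearing osteoblasts, 4.20, 4.66 and 4.19 in tumor-free endothelial cells and 4.49, 4.22 and 4.47 in tumor-bearing endothelial cells. It lay above the 40th percentile on 4 arrays, the 3 tumor-bearing osteoblast arrays and tumor-free replicate 3, so its lower values are near the dim end of each array and no fold is given. It entered the tests through osteoblast arrays alone. In tumor-bearing mice the difference between osteoblasts and endothelial cells was 2.59 (SE 0.53, limma adjusted p = 0.0104, and 0.0145 in the fit of all genes with no filter on low values). Against tumor-free osteoblasts the difference was 1.65 (SE 0.53, limma adjusted p = 0.354). Without replicate 3 of the tumor-free osteoblasts it was 2.39. The gene then met the filter through the tumor-bearing osteoblast arrays alone, the group where it was high, so this is given as a value and not as a call. Relatives of Ms4a6c lie in the same gene cluster and could share signal.

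The complement genes C1qa, C1qb and C1qc, which adjoin each other in the genome and encode the 3 chains of C1q, all had higher values in osteoblasts. C1qc read 6.38, 7.70 and 9.09 in tumor-free osteoblasts, 7.43, 6.90 and 7.82 in tumor-bearing osteoblasts, 5.86, 5.60 and 5.77 in tumor-free endothelial cells and 6.39, 5.78 and 5.65 in tumor-bearing endothelial cells. For C1qa and C1qb the osteoblast arrays of both mouse groups also lay above the endothelial arrays of the same mouse group. C1qc passed in tumor-free mice (difference 1.98, SE 0.54, limma adjusted p = 0.0376), but at 1.29 without replicate 3 of the tumor-free osteoblasts it did not (0.0672). The call was also lost without tumor-bearing osteoblast replicate 1, tumor-free osteoblast replicate 2, tumor-bearing endothelial replicate 2 or 3 or any tumor-free endothelial replicate (limma adjusted p 0.0519 to 0.111), in the fit of the 6 tumor-free arrays alone (0.120) and without the filter on low values (0.0505). C1qa (1.04) and C1qb (0.93) did not pass in tumor-free mice (limma adjusted p 0.128 and 0.0611), nor did the 3 genes in tumor-bearing mice (1.25, 0.59 and 1.44, adjusted p 0.0718, 0.255 and 0.135).

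Cd68, a lysosomal glycoprotein gene, read 7.23, 6.84 and 7.35 in tumor-free and 7.76, 7.06 and 7.85 in tumor-bearing osteoblasts, and 7.79, 6.61 and 7.54 in tumor-free and 6.95, 6.94 and 6.83 in tumor-bearing endothelial cells. The tumor-bearing osteoblast arrays lay above the tumor-bearing endothelial arrays (0.66, SE 0.30, limma adjusted p = 0.227), while the tumor-free groups overlapped (-0.17, adjusted p = 0.806). Of the receptor genes, Csf1r, the receptor of the macrophage growth factor CSF1, spanned 5.13 to 6.19, Fcgr3, an Fc receptor gene with close relatives, 6.07 to 8.38 with overlapping cell types in both mouse groups, and Adgre1, which encodes the macrophage marker F4/80, was not tested. It read 4.53 to 6.41 in the 6 osteoblast arrays and 4.11 to 4.49 in the 6 endothelial arrays.

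Over the 9 macrophage genes tested the osteoblast minus endothelial median was 0.99 in tumor-free and 1.25 in tumor-bearing mice, where all genes had -0.01 and -0.03. In tumor-bearing mice all 9 were positive, and the median stayed between 1.17 and 1.39 when any array was left out. Among the 9, Csf1r and Ms4a6c met the filter through osteoblast arrays alone, which favours a positive sign and a higher median. In tumor-free mice the median was 0.46 without replicate 3 of the tumor-free osteoblasts. Tumor-bearing against tumor-free osteoblasts gave 5 positive and 4 negative genes (median 0.08, 0.52 without that array and -0.20 without tumor-free replicate 2), and endothelial cells 6 and 3 (median 0.04). A longer list of macrophage genes gave 10 tested, with 0 past by limma in either tumor comparison. Unadjusted, 0 were higher in osteoblasts (5.80% of all genes tested) and 1 in endothelial cells (2.62%). Aif1, an actin-binding protein gene of macrophages, was higher in osteoblasts of tumor-free (2.08, SE 0.53, limma adjusted p = 0.0262) and tumor-bearing mice (2.47, SE 0.53, adjusted p = 0.0124). It met the filter through its 6 osteoblast arrays, with 5 of 6 endothelial arrays below the 40th percentile. Cybb, a subunit of the phagocyte oxidase, was higher in tumor-free mice (2.28, SE 0.60, limma adjusted p = 0.0318). Its endothelial arrays alone would not have met the filter either. The differences of Aif1 and Cybb are therefore given as values and not as calls. Mrc1, the mannose receptor gene, which sinusoidal endothelium also expresses, was lower in osteoblasts, by -4.21 in tumor-free and -3.70 in tumor-bearing mice (limma adjusted p 0.00231 and 0.00558).

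Cathepsin K (Ctsk) and Mmp9, genes that osteoclasts make in quantity, were also brighter in osteoblasts, by 3.48 and 2.82 in tumor-free and 3.10 and 3.01 in tumor-bearing mice (limma adjusted p 0.000164 to 0.000722). The endothelial arrays of Ctsk alone would not have met the filter, so its differences are qualified. Osteoclasts arise from the same precursors as macrophages. Of 8 osteoclast genes measured 5 were tested, and the other 3 did not pass and did not share a direction. In tumor-free and tumor-bearing mice the osteoblast minus endothelial differences were 0.65 and 0.83 for the phosphatase gene Acp5, -0.10 and -0.31 for the receptor gene Oscar and -0.18 and -0.17 for Ocstamp, a gene of osteoclast fusion.

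**Figure D4:**
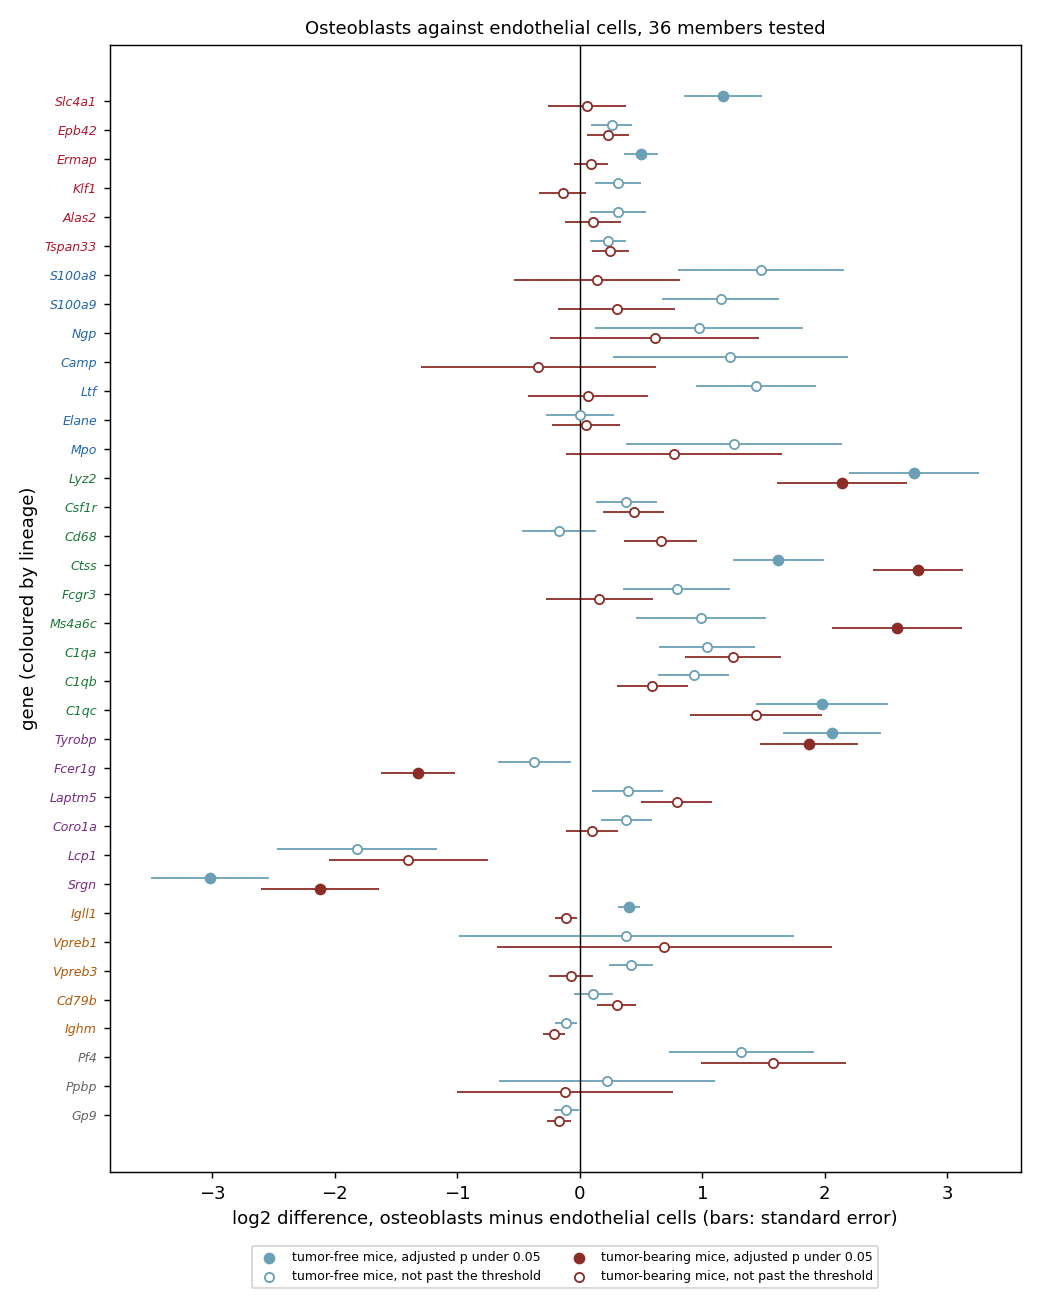
Log2 difference between osteoblasts and endothelial cells for the 36 genes tested, in tumor-free (light blue) and tumor-bearing mice (dark red), with standard errors from the limma fit. Filled points have an adjusted p under 0.05. Macrophage genes lie mostly to the right of 0, and Srgn, Lcp1 and Fcer1g lie to the left.

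The genes shared by many leukocytes did not move as one. Tyrobp, the signalling adaptor DAP12 of myeloid and NK cells, read 8.33, 8.56 and 9.93 in tumor-free osteoblasts, 8.56, 9.28 and 9.05 in tumor-bearing osteoblasts, 6.75, 7.38 and 6.51 in tumor-free endothelial cells and 7.25, 7.30 and 6.75 in tumor-bearing endothelial cells. All osteoblast arrays were above all endothelial arrays. It was 4.17-fold higher in osteoblasts of tumor-free mice (2.06, SE 0.40, limma adjusted p = 0.00599) and 3.65-fold higher in tumor-bearing mice (1.87, SE 0.40, adjusted p = 0.0121), in all 22 alternatives for each.

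Srgn, which encodes serglycin, the proteoglycan of secretory granules that endothelial cells also make, went the opposite way. It read 7.19, 6.77 and 9.14 in tumor-free osteoblasts, 8.33, 8.48 and 8.75 in tumor-bearing osteoblasts, 10.85, 10.54 and 10.76 in tumor-free endothelial cells and 10.88, 10.69 and 10.36 in tumor-bearing endothelial cells. Every endothelial array was above every osteoblast array. The difference was -3.02 in tumor-free mice (SE 0.48, 8.11-fold, limma adjusted p = 0.00192), in all 22 alternatives, and -2.12 in tumor-bearing mice (SE 0.48, 4.35-fold, adjusted p = 0.0171). The latter was lost without replicate 1 or 2 of the tumor-bearing osteoblasts or of the tumor-bearing endothelial cells (limma adjusted p 0.051 to 0.0615).

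Lcp1, the leukocyte actin bundler L-plastin, read 5.94, 5.45 and 8.67 in tumor-free osteoblasts, 8.03, 7.44 and 7.42 in tumor-bearing osteoblasts, 8.68, 8.54 and 8.32 in tumor-free endothelial cells and 8.94, 9.28 and 8.86 in tumor-bearing endothelial cells. Replicate 3 of the tumor-free osteoblasts lay within the range of the tumor-free endothelial arrays and 2.97 above the mean of its own group's other replicates. The tumor-bearing endothelial arrays were above the tumor-free ones without overlap (0.51, SE 0.65, limma adjusted p = 0.9999). In neither mouse group did the difference between cell types pass (-1.82 and -1.40, SE 0.65, limma adjusted p 0.105 and 0.234).

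The tumor effects of Lcp1 and Srgn in osteoblasts depended on a single control array. On all arrays the differences were 0.94 (SE 0.65) for Lcp1 and 0.82 (SE 0.48) for Srgn, with limma adjusted p of 0.672 and 0.622. Without replicate 3 of the tumor-free osteoblasts they were 1.93 and 1.54, and both passed at a limma adjusted p of 0.0315. That array was singled out by its high values in these same genes. It held the highest control value of Lcp1 (8.67) and of Srgn (9.14), so leaving it out must raise both differences. These passes are therefore not counted as calls. Without replicate 3 of both osteoblast groups they were 2.04 and 1.43 (limma adjusted p 0.0276 and 0.0436), and Ms4a6c then had too few bright arrays to be tested.

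Fcer1g, the gamma chain shared by Fc receptors, read 7.31, 6.95 and 7.59 in tumor-free osteoblasts, 6.34, 6.49 and 7.32 in tumor-bearing osteoblasts, 7.39, 7.36 and 8.20 in tumor-free endothelial cells and 8.23, 8.13 and 7.76 in tumor-bearing endothelial cells. In tumor-bearing mice the endothelial arrays were above the osteoblast arrays (osteoblasts minus endothelial cells -1.32, SE 0.30, limma adjusted p = 0.0186), and this was lost without replicate 1 or 2 of either tumor-bearing group (adjusted p 0.0616 to 0.0725). Coro1a, the actin regulator coronin 1A, read 5.87, 6.23 and 6.88 in tumor-free and 5.91, 5.82 and 5.71 in tumor-bearing osteoblasts, and 5.81, 6.11 and 5.93 in tumor-free and 5.67, 5.62 and 5.84 in tumor-bearing endothelial cells, overlapping in both cell types. Laptm5, a lysosomal protein gene of blood cells, spanned 5.51 to 7.16, with its highest value in tumor-bearing osteoblast replicate 3, the array with the highest Ptprc. Spi1 was not tested and spanned 5.04 to 5.90.

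Over the 6 leukocyte genes tested the medians were 0.13 in tumor-bearing against tumor-free osteoblasts and 0.07 in endothelial cells, and 0.01 and -0.61 for osteoblasts minus endothelial cells in tumor-free and tumor-bearing mice. The signs of all 4 turned in some alternatives: the medians ran from -0.10 to 0.44, -0.07 to 0.30, -1.10 to 0.14 and -1.36 to 0.10 in that order. The lowest value of the last 2 came with the 60th percentile as the filter, and 0.10 came with no filter. Of 11 tested genes in a longer leukocyte list 0 passed by limma in the tumor comparisons. Unadjusted, 1 was lower in osteoblasts (3.97% of all genes tested) and 0 in endothelial cells (1.97%). Hcls1, a signalling protein gene of blood cells, was lower in osteoblasts than in endothelial cells of tumor-bearing mice (-1.47, SE 0.38, limma adjusted p = 0.0312).

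**Figure D5:**
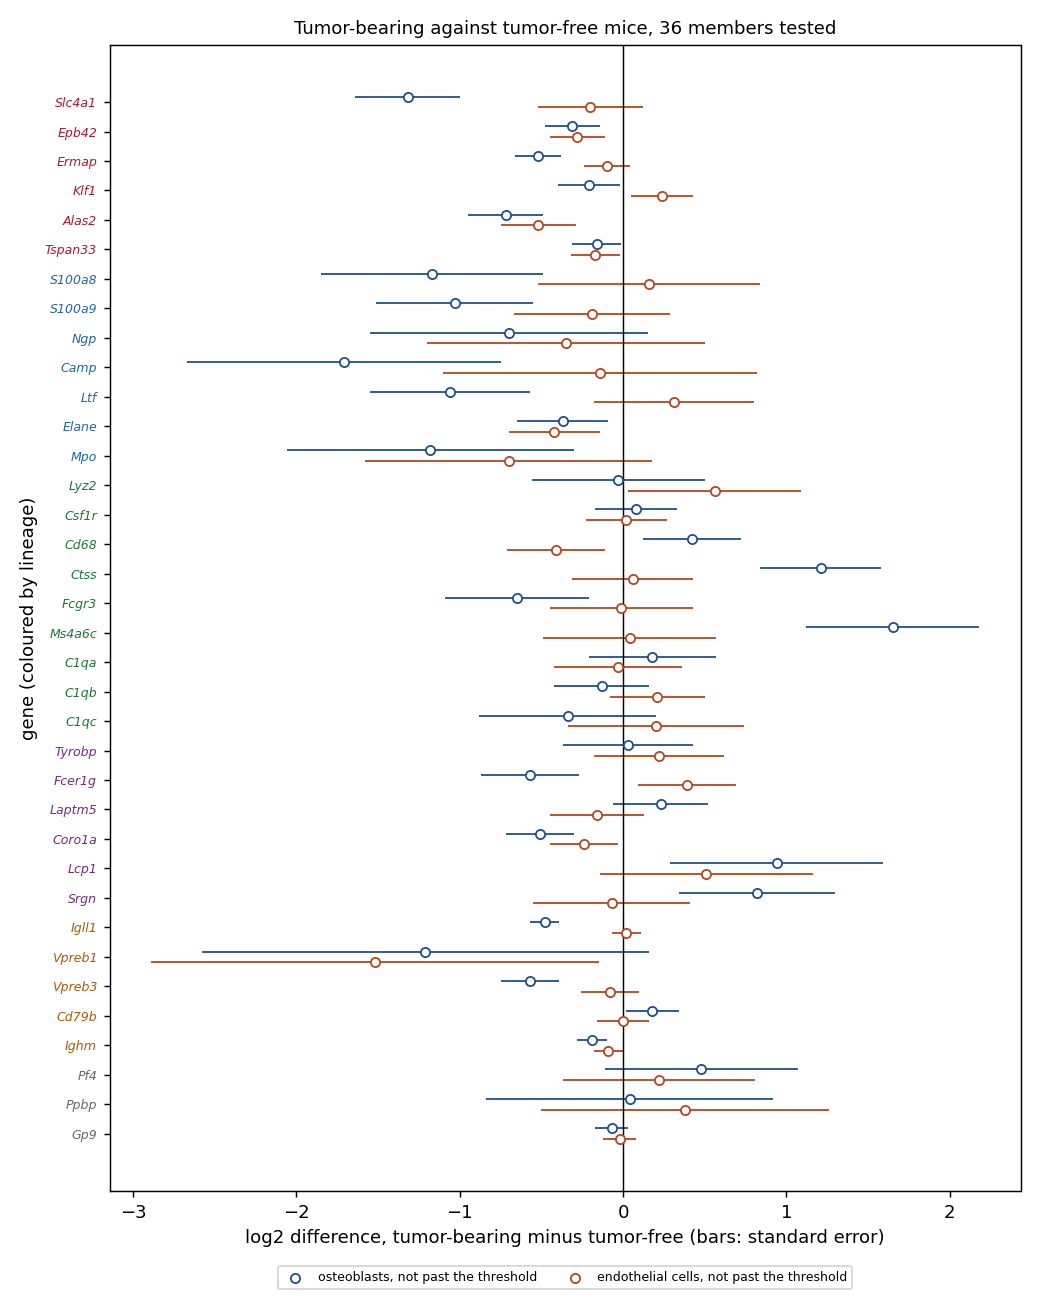
Log2 difference between tumor-bearing and tumor-free mice for the 36 genes tested, in osteoblasts (blue) and endothelial cells (orange), with standard errors from the limma fit. All points are open, as 0 genes passed in either cell type. The erythroid and neutrophil genes of osteoblasts lie left of 0, and Ctss and Ms4a6c lie farthest right.

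Among the B cell genes, Vpreb1 varied widely between replicates and Igll1 hardly did. Igll1 and Vpreb1 encode the surrogate light chain that pairs with the heavy chain in B cell precursors, and they are neighbours in the genome. Igll1 read 6.42, 6.46 and 6.59 in tumor-free osteoblasts, 6.00, 6.02 and 6.00 in tumor-bearing osteoblasts, 6.15, 6.00 and 6.11 in tumor-free endothelial cells and 6.08, 6.14 and 6.12 in tumor-bearing endothelial cells. The tumor-free osteoblast arrays lay above all 9 others. In tumor-free mice Igll1 was 0.40 higher in osteoblasts than in endothelial cells (SE 0.09, limma adjusted p = 0.0131), a call lost without replicate 2 of the tumor-free endothelial cells (0.0556), without replicate 3 of both osteoblast groups (0.0592) and in the fit of those 6 arrays alone (0.0758). Between tumor-bearing and tumor-free osteoblasts the difference was -0.48 (SE 0.09, limma adjusted p = 0.117), the smallest adjusted p of the 36 genes in that comparison and not past the threshold, as were 0.0790 to 0.494 over the alternatives. Its within-group SD of 0.06 was smaller than that of all but 0.8% of the genes tested.

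Vpreb1 had the largest range of the 43 genes, 5.10. It read 9.94, 6.43 and 9.27 in tumor-free osteoblasts, 5.50, 8.66 and 7.83 in tumor-bearing osteoblasts, 10.14, 9.32 and 5.04 in tumor-free endothelial cells and 7.79, 6.05 and 6.09 in tumor-bearing endothelial cells. Both osteoblast groups and the tumor-free endothelial group held arrays above and below the median of 7.81 over the 12 arrays, and the 3 tumor-bearing endothelial arrays lay below it. The within-group SD of 1.91 ranked 5 among 14217 genes. The tumor differences, -1.21 in osteoblasts and -1.52 in endothelial cells (SE 1.37 for both), were about the size of their errors. Vpreb1 has a close copy, Vpreb2, and which of them the probe set reads was not tested.

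Vpreb3, a partner of the pre-B receptor chains, read 6.10, 6.07 and 6.77 in tumor-free and 5.52, 5.88 and 5.85 in tumor-bearing osteoblasts, and 5.88, 6.02 and 5.80 in tumor-free and 5.83, 5.79 and 5.83 in tumor-bearing endothelial cells. Its tumor-bearing osteoblast arrays lay below the tumor-free ones (-0.57, SE 0.18, limma adjusted p = 0.353). Ighm, the IgM heavy chain gene, read 6.37, 6.28 and 6.29 in tumor-free and 6.16, 6.05 and 6.16 in tumor-bearing osteoblasts, and 6.54, 6.31 and 6.43 in tumor-free and 6.36, 6.32 and 6.33 in tumor-bearing endothelial cells. The tumor-bearing osteoblast arrays lay below the tumor-free ones (-0.19, SE 0.09, limma adjusted p = 0.547). Ighm was the 1 gene of the 43 with several probe sets, and those not used spanned 4.83 to 5.17 and 3.01 to 3.63. The genes of the B cell receptor's signalling chains were Cd79b, at 6.25 to 7.01, and Cd79a, at 3.80 to 4.86 and not tested. Ebf2, better known from stromal and fat cell precursors than from B cells, read 4.72 to 5.77 and was not tested.

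Of the 5 B cell genes tested 4 were negative in tumor-bearing osteoblasts (median -0.48, or -0.34 without tumor-free replicate 3) and 4 in endothelial cells (median -0.08). Osteoblasts minus endothelial cells gave a median of 0.38 in tumor-free mice, or 0.07 without that array, and -0.07 in tumor-bearing mice (-0.11 to 0.30 over the alternatives). A longer B cell list had 6 genes tested, with 0 past by limma in either tumor comparison and 0 at an unadjusted p under 0.05. Blnk, a linker protein of B cell receptor signalling, lay above the 40th percentile on 3 arrays, all of osteoblasts, and so met the filter through the cell type where it was high. Its osteoblast minus endothelial difference in tumor-free mice, 0.80 (SE 0.21, limma adjusted p = 0.0307), is given as a value and not as a call.

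Of the megakaryocyte genes, Pf4 and Ppbp varied from array to array. Pf4 and Ppbp encode chemokines of platelet granules and lie side by side in the genome. Pf4 read 9.25, 8.06 and 8.72 in tumor-free osteoblasts, 8.96, 10.35 and 8.17 in tumor-bearing osteoblasts, 6.97, 7.50 and 7.60 in tumor-free endothelial cells and 8.34, 7.93 and 6.46 in tumor-bearing endothelial cells. Osteoblast arrays were above endothelial ones without tumor, and in tumor-bearing mice the groups overlapped. The differences between cell types, 1.32 and 1.58 (SE 0.59), did not pass (limma adjusted p 0.209 and 0.134). Ppbp read 8.19, 6.14 and 6.70 in tumor-free and 9.34, 6.50 and 5.31 in tumor-bearing osteoblasts, and 6.25, 7.11 and 7.0 in tumor-free and 7.44, 7.59 and 6.47 in tumor-bearing endothelial cells. Its highest and lowest values of all arrays were both in tumor-bearing osteoblasts, and the array with the highest Pf4 was not the one with the highest Ppbp.

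Gp9, part of the platelet receptor for von Willebrand factor, hardly varied: 6.17, 6.05 and 6.13 in tumor-free osteoblasts, 6.15, 6.02 and 5.97 in tumor-bearing osteoblasts, 6.22, 6.15 and 6.32 in tumor-free endothelial cells and 6.13, 6.16 and 6.35 in tumor-bearing endothelial cells. Over the 3 genes the tumor medians were 0.04 in osteoblasts and 0.22 in endothelial cells, and ran from -0.12 to 0.91 and from 0.02 to 0.73 when 1 array was left out. Of 6 tested genes in a longer megakaryocyte list 0 passed by limma in any of the 5 comparisons, and 0 had an unadjusted p under 0.05.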

How the data were processed

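RNA of sorted bone cells was hybridised to 12 Affymetrix Mouse Gene 1.0 ST arrays, 3 per group. The authors deposited log2 values per probe set, made with the affy package per the submitters' processing notes; no source used here states its version or summary method. Of 34760 probe sets, 21640 name 1 gene in the platform annotation, 1321 several and 11799 none; 21553 of the single names matched RefSeq (GRCm38.p6). The number of arrays limits the precision.

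The deposited values were fitted with limma 3.58.1 in R 4.3.3, with 1 coefficient per group over 12 arrays, eBayes and Benjamini-Hochberg adjustment over 14217 genes at 0.05. P-values measure the spread between these arrays. The members and lists were chosen with earlier results of these data known. All 43 genes were named by rule. Values per array are given for genes past the threshold in any comparison and, per lineage, for the 2 with the smallest p in each tumor comparison and the 2 with the largest range. Exceptions, named after their values were seen, are the whole macrophage receptor set and Ccl5, Chil3 and Hp. The fit was tested on simulated data for the tumor comparison in osteoblasts. It recovered 16% of genes changed by a log2 difference of 0.5, 56% at 1 and 88% at 2. Smaller differences would thus often be missed. Deviations from the group means were no more alike between same-numbered arrays than between others. Correlations were -0.0797 to 0.074 over 18 same-numbered pairs and -0.101 to 0.0855 over 36 others. They cannot tell whether arrays shared mice. Alternatives were other scalings, filters, probe set rules, variance settings and arrays left out.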

Additional observations from a re-analysis of the deposited data

How the results depend on the processing

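Of the 43 genes, 0 passed between tumor-bearing and tumor-free endothelial cells in 22 alternatives, and 0 in the difference of tumor effects in 21. In osteoblasts 0 passed in 20 of 22 alternatives, with 3 without replicate 3 of the tumor-free osteoblasts (Lcp1, Srgn and Ms4a6c, the last of which then met the filter through the tumor-bearing arrays alone) and 2 without replicate 3 of both osteoblast groups (0 to 3 when 1 array was left out). Both settings leave out the control array singled out by its high values in these genes, so these passes are not counted as calls. The 8 calls between cell types in tumor-free mice ranged from 3 to 9 when 1 array was left out and were 3 in the fit of the groups compared alone, and the 6 in tumor-bearing mice ranged from 3 to 9. Lyz2, Tyrobp and Srgn in tumor-free mice and Ctss and Tyrobp in tumor-bearing mice passed in all 22. The sign of Pf4, which was not past the threshold, turned in osteoblasts (-0.12 without tumor-bearing replicate 2, range to 0.98) and in endothelial cells (-0.16 without tumor-bearing replicate 1, range to 0.78). The cause of these changes was not tested.

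Over all genes, the 8 that passed between osteoblast groups became 5 after quantile normalization, 1 with array weights, 0 in the fit of the groups compared alone (limma, 1046 at an unadjusted p under 0.05), 40 without replicate 3 of both osteoblast groups and 1 to 25 when 1 array was left out. Counts in endothelial cells (2) ranged from 2 to 6 and in the difference of tumor effects (4) from 0 to 7 when 1 array was left out. With the replicate number as a block, the counts over all genes were 1 in osteoblasts and 1 in the difference of tumor effects, and the counts of calls among the 43 genes were 0 for each tumor comparison and 6 for each comparison of cell types, without Slc4a1 and C1qc in tumor-free mice. Values near the dim end of an array, as for Ms4a6c in endothelial cells, hold little information on differences.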
